A study of Mus musculus with 2 samples.

Results

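The collagen genes taken here are the autosomal protein-coding genes of GENCODE vM21 (mm10) whose symbol is Col, a number, a and a number. They are 42 of the 20722 autosomal protein-coding genes that have a protein-coding transcript, and they lie on 14 autosomes. The rule uses names alone and no measured value, although the collagens were taken up with earlier results of these data known. SCoTCH-seq, which reads C, mC and hmC on both strands of the same DNA fragment, was performed on genomic DNA of E14, a mouse embryonic stem cell line, in 1 condition. Both libraries, called replicate 1 and replicate 2, come from different passages of these cells, kept on gelatin in DMEM high glucose with FBS, GlutaMax-I, NEAA, β-mercaptoethanol and LIF. The FBS share in the labels differs from that in the study's methods. Different passages of 1 line are not separate animals, and p-values below measure the reads of each library only. The cells carried no treatment or genotype to compare, so each comparison is between genes or between parts of a gene, in each replicate apart. Promoters of pluripotency genes were mostly CC, which means unmodified on both strands: 98.7% and 100% of calls at Pou5f1, 99.8% and 100% at Sox2, 80.4% and 86.2% at Nanog, 97.2% and 98.8% at Zfp42, and 86.8% and 82.4% at Esrrb, in replicates 1 and 2. The median over 9779 promoters was 91.6% and 90.6% CC, so these levels alone do not identify the cells.

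Collagens are triple-helical proteins of the extracellular matrix, built of a short repeat in which glycine recurs at a fixed period. Fibrillar collagens give tendon, bone, skin and cartilage their strength, network collagens form basement membranes, and others sit on fibrils, in the cell membrane or in anchoring structures. Most are expressed in differentiated mesenchymal, cartilage or epithelial cells, while Col4a1 and Col4a2 are made by early embryonic cells that lay down a basement membrane. At a CpG site, mC on both strands is written MM, mC opposite C is MC or CM, hmC opposite C is HC or CH, hmC opposite mC is HM or MH, and hmC on both strands is HH. TET enzymes oxidise mC to hmC, and maintenance methylation after replication acts on hemimethylated sites.

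A level here is the number of calls of a state divided by all calls in a region, as a percent. A gene body is the gene span without the promoter, which is 1 kb either side of the start of the representative transcript. In the bodies of the 42 genes, 33789 CpG sites carried 343407 calls in replicate 1 and 12074 sites carried 75961 calls in replicate 2, out of 143497239 and 31306245 calls in all. With a minimum of 50 sites in each replicate, 38 collagen bodies and 10217 gene bodies in all were tested. Col1a1, with 49 sites in replicate 2, Col9a2, Col9a3 and Col10a1 were not. With a minimum of 10 sites in each replicate, 17 collagen promoters and 9779 promoters in all remained, and replicate 1 alone gave 39 collagen promoters. Intervals are exact 95% Clopper-Pearson intervals, which cover counting error only. Spike-in duplexes of known state gave the rate of false calls: 4.51% of fully methylated sites were read as HM/MH in replicate 1, and 0.467% were in replicate 2. Of hemimethylated sites, 3.49% in replicate 1 and 0.615% in replicate 2 were read with hmC in place of their mC. Levels as called therefore hold more false HM/MH in replicate 1, and more false HC/CH from hemimethylated sites. HC/CH levels of promoters, exons and introns are given as called. Replicate 1 is also the deeper library.

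Collagen promoters ranged from nearly all CC to nearly none, and those under 50% CC in replicate 1 with at least 10 sites all held fewer than 60 CpG within 1 kb of the start. The 250 bases before the start are shown for 5 members that span this range, from the RefSeq promoter table of GRCm38.p6, which holds entries for 33 of the 42 genes. They run 5′ to 3′ on the gene's strand, and capitals mark CpG. Col13a1, a transmembrane collagen, lies at chr10:61979109-61979358, minus strand. Col5a1, a fibrillar collagen that regulates fibril diameter, lies at chr2:27886175-27886424, plus strand. Col7a1, which forms the anchoring fibrils of skin, lies at chr9:108953336-108953585, plus strand. Col10a1, the collagen of hypertrophic cartilage, lies at chr10:34389731-34389980, plus strand. Col9a1, a fibril-associated collagen of cartilage, lies at chr1:24177360-24177609, plus strand.
Col13a1: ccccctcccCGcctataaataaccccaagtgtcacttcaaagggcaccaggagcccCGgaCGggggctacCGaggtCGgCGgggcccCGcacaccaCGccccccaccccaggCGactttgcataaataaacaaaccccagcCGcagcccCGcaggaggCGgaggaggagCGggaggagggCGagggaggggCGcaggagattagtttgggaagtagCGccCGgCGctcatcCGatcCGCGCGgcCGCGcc
Col5a1: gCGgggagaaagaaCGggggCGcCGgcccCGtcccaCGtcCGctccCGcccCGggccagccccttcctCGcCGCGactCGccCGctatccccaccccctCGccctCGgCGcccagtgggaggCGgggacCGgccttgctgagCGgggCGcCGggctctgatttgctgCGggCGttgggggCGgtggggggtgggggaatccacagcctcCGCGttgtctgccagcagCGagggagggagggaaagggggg
Col7a1: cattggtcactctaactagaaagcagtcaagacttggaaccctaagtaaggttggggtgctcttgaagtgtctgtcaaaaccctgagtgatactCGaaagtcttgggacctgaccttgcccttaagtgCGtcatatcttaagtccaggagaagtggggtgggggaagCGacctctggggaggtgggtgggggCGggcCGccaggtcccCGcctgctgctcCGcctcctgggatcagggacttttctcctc
Col10a1: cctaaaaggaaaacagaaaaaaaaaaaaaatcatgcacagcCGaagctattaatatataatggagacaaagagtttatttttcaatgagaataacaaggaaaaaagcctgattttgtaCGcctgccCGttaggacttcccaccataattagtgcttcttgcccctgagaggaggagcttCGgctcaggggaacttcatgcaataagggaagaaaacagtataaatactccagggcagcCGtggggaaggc
Col9a1: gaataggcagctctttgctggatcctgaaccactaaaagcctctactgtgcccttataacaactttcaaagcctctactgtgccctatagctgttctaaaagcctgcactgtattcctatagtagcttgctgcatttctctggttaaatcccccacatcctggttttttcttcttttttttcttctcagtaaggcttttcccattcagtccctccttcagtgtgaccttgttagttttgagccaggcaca

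These windows hold 24, 28, 7, 5 and 0 CpG, in that order. Among 32851 RefSeq promoters, 12.0% hold at least 24 CpG in the same 250 bases, 7.61% hold at least 28, and 7.87% hold none. The windows of Col7a1 and Col10a1 are near the median of 6, with at most as many CpG in 57.0% and 49.6% of promoters. Few of these sites were covered. In replicate 1 the Col13a1 window had 8 sites with 45 calls, all CC, and the Col10a1 window had 4 sites with 29 calls, of which 10.3% were CC and 65.5% MM. The wider promoter gave more. Col13a1 was 94.3% CC in replicate 1 (54 sites) and 100% in replicate 2, where only 4 sites with 23 calls were covered. Col5a1 was 92.1% and 78.2% CC, the latter over 9 sites. Col7a1 held an intermediate 58.5% and 56.1%. Col10a1 was 11.1% and 5.26% CC, the latter over 7 sites. Col9a1 was 10.3% and 0%, the last from 0 of 75 calls at 10 sites, which allows a share of up to 4.0% (3 calls).

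CC was at least 50% in both replicates in 13 of the 17 collagen promoters, while 89.2% of all promoters tested were in that class. It was under 50% in both in 3 of 17, Col9a1, Col6a4 and Col6a2, against 8.14% of all promoters. The remaining 1, Col4a4, gave 50.2% in replicate 1 and 21.4% in replicate 2. The median promoter CC level was 71.9% and 71.4% over the collagens, and 91.6% and 90.6% over all promoters. In replicate 1 alone, 11 of 39 collagen promoters were under 50% CC, against 22.9% of 16977 promoters, which is near the background. Of the 6 beaded filament genes, whose chains form the type VI microfibrils around cells, 5 were among the 11. In these 5, CC was 16.0% at Col6a1, 27.8% at Col6a2, 15.2% at Col6a3, 26.8% at Col6a4 and 21.4% at Col6a5 in replicate 1. Replicate 2 gave 11.1%, 43.1%, 13.5%, 42.9% and 6.90% for these 5 genes, with 5 to 11 sites each, so all 10 values lay under 50%. Col6a6 gave 54.6% and 52.8%, the latter over 6 sites. The other members under 50% in replicate 1 were Col9a1 and Col10a1 (above), Col22a1, Col17a1, Col5a2 and Col16a1. Col22a1, a collagen of the myotendinous junction, gave 20.5% over 10 sites and had no site in replicate 2. Col17a1, of the hemidesmosome, gave 24.0% and 41.7%, and Col5a2, of fibrils, 39.0% and 42.3%, with only 8 and 5 sites in replicate 2. Col16a1 gave 44.0%, and 9.09% in replicate 2 over 3 sites. Col3a1, the type III collagen of vessels and skin, was below the site minimum with 20.7% over 6 sites, and its only site in replicate 2 gave 60%. Col28a1, also below the minimum, has only 4 reference CpG within 1 kb of its start and was 100% CC in both replicates, from 38 calls at 2 sites and 7 calls at 1 site.

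Besides Col4a4, the members under 50% CC in replicate 2 but not in replicate 1 had 1 to 9 sites there. These were Col4a3 with 26.4% (58.0% in replicate 1), Col15a1 with 27.3% (72.2%), Col11a2 with 42.9% (71.3%), Col20a1 with 20% (51.5%) and Col18a1 with 16.7% (57.2%). At the high end stood Col27a1, a fibrillar collagen of the growth plate, with 96.4% and 90.5%, and Col14a1, a fibril-associated collagen, with 93.3% and 86.2%. Col2a1, the main cartilage collagen, gave 92.9% and 87.1%. Both type I chains lay between, Col1a1 with 66.5% and 73.8% and Col1a2 with 68.0% and 61.9%, which is less CC than at Col2a1 in both replicates. In replicate 2 each type I value rested on 7 sites with 42 calls, below the minimum. The reference holds 96 CpG within 1 kb of the start at Col2a1, 44 at Col1a1 and 52 at Col1a2. The number of CpG in the reference within 1 kb of the start tracked CC across the 17 promoters (Spearman's rho = 0.818 in replicate 1 and 0.752 in replicate 2), and over all 9779 promoters rho was 0.571 and 0.533. These are descriptions over genes that share a library. All 10 collagen promoters with at least 60 CpG were at least 50% CC in both replicates (all promoters of that kind, 97.9%), and 3 of the 7 with fewer (58.3%). The cut of 60 was not in the plan of comparisons. It lies just above Col4a4, with 57 CpG the densest of the 17 outside that class, so these counts depend on the cut.

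**Figure D1:**
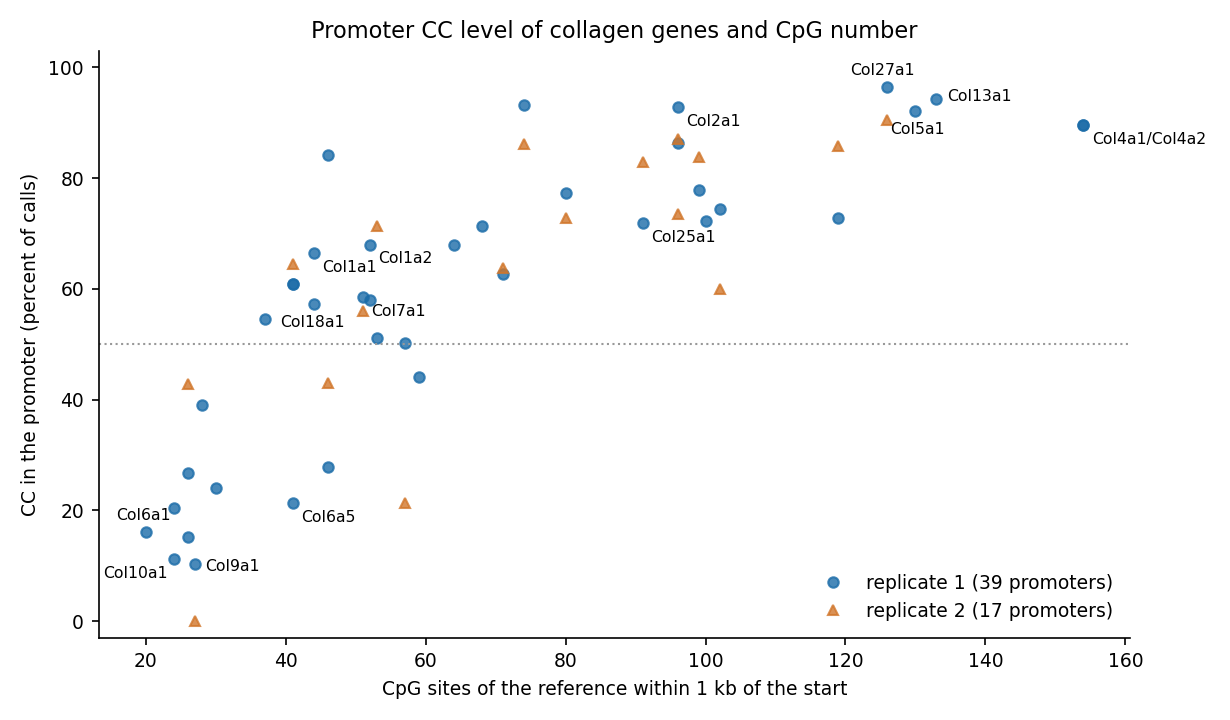
Promoter CC level (percent of calls) against the number of reference CpG sites within 1 kb of the start, 1 point per collagen promoter with at least 10 covered sites. Circles are replicate 1 (39 promoters) and triangles replicate 2 (17 promoters), and the points below 50% CC lie at fewer than 60 CpG in both.

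HC/CH around collagen starts did not fall as low as over all genes. In the 200 bp after the start, HC/CH made up 4.31% of 1090 calls in replicate 1 over the 42 collagens. Replicate 2 gave 5.47% of 128 calls at 21 sites, and all genes gave 1.33% and 1.47%. CC in the same bin was 79.5% and 76.6% over the collagens, and 86.9% and 85.2% over all genes. The bins before and after it gave 3.29% and 3.35% HC/CH in replicate 1 over the collagens, and 3.66% and 4.73% in replicate 2. Over all genes they gave 1.32% and 1.41% in replicate 1, and 1.42% and 1.68% in replicate 2. Per promoter, the median HC/CH level was 4.35% in both replicates over the 17 collagens and 1.34% and 1.32% over all promoters. Among promoters with at least 60 reference CpG, the medians were 2.71% and 3.34% over 10 collagens and 1.04% and 1.00% over 7635 promoters. Among those with fewer, they were 6.09% and 7.14% over 7 collagens and 3.61% and 3.27% over 2144 promoters. The highest promoter of the 17 in replicate 1 was Col7a1 with 8.64%, and 10.3% in replicate 2. Col6a2 gave 6.09% and 12.3%, while Col27a1 gave 1.13% and 2.38%. Col1a1 gave 10.5% (6.51% to 15.7%) over 191 calls in replicate 1 but 2.38% (0.0603% to 12.6%) over 42 calls in replicate 2, and these intervals overlap. These promoter HC/CH levels were not tested gene by gene. Collagen promoters held less CC and more MM than promoters at large, with a median MM of 19% and 18.9% against 4.45% and 4.58%, and the part of this in the HC/CH levels was not tested.

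**Figure D2:**
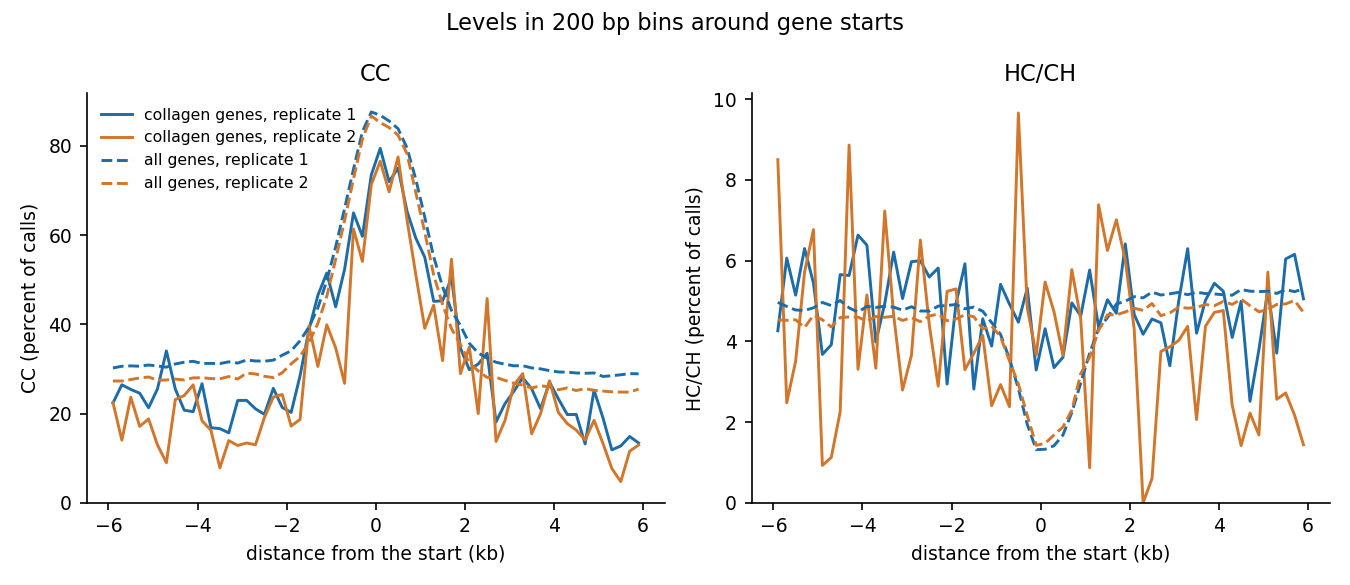
CC and HC/CH (percent of summed calls) in bins of 200 bp within 6 kb of gene starts, for the 42 collagens (solid) and all genes (dashed), by replicate. CC rises at both kinds of start, and the all-gene HC/CH line falls to 1.33% just after the start in replicate 1 where the collagens hold 4.31%.

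A promoter level depends on which start is taken, and 2 members showed this most. Col18a1, which encodes the proteoglycan core that endostatin is cut from, spans chr10:77052178-77166548 on the minus strand, and its representative transcript starts 52843 bp inside the span. The start at the end of the span was 93.3% CC in replicate 1 and 92.9% in replicate 2 (63 and 21 sites), with 1.69% and 1.59% HC/CH. The inner start was 57.2% CC with 9.29% HC/CH in replicate 1, and 1 site with 6 calls covered it in replicate 2. Col25a1, a transmembrane collagen of neurons, has its representative start 49390 bp inside its span and showed the reverse. The inner start was 71.9% and 82.8% CC, and the outer start 8.16% and 3.95% CC with 73.5% and 82.9% MM. Paired genes share their promoters. The starts of Col4a1 and Col4a2, the chains of most basement membranes, lie 21 bp apart on opposite strands of chromosome 8, so both genes have the same value, which was 89.6% CC at 54 sites in replicate 1 but rested on 3 sites, with 64.7% CC, in replicate 2. Col4a3 and Col4a4, chains of the kidney's filtration barrier, start 127 bp apart on chromosome 1, and their values above also share sites.

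Most collagen bodies held less HC/CH than gene bodies at large. Each gene's HC/CH calls were compared with those of all other gene bodies by Fisher's exact test, two-sided, with Benjamini-Hochberg adjustment over the 10217 genes, and a gene was called where the adjusted p was under 0.05 in both replicates with the same sign. Of 38 collagens, 18 were called lower, where 14.1% of all genes were, and 4 higher, where 20.3% were. The median HC/CH level was 3.56% and 2.71% over the collagens, and 5.05% and 4.33% over all genes. Corrected with the spike-in call rates of each replicate, these medians were 3.04% and 2.62% for the collagens and 4.57% and 4.31% for all genes. In both replicates 29 of 38 collagens lay under the all-gene median, as 40.9% of all genes did. The collagens' levels kept much of their order between replicates (Spearman's rho = 0.849 over 38 genes, and 0.813 over all genes). The test compares reads within a library, treats calls as independent and asks whether a gene differs from the mean of the rest, so long and deeply covered genes are called more often. Neighbouring sites share read pairs. With sites at least 150 bp apart, 14 collagens of 34 tested were called lower and 3 higher (12% and 18% of 7180 genes), and with Bonferroni adjustment 7 of 38 were lower and 1 higher (5.63% and 5.22% of all genes).

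**Figure D3:**
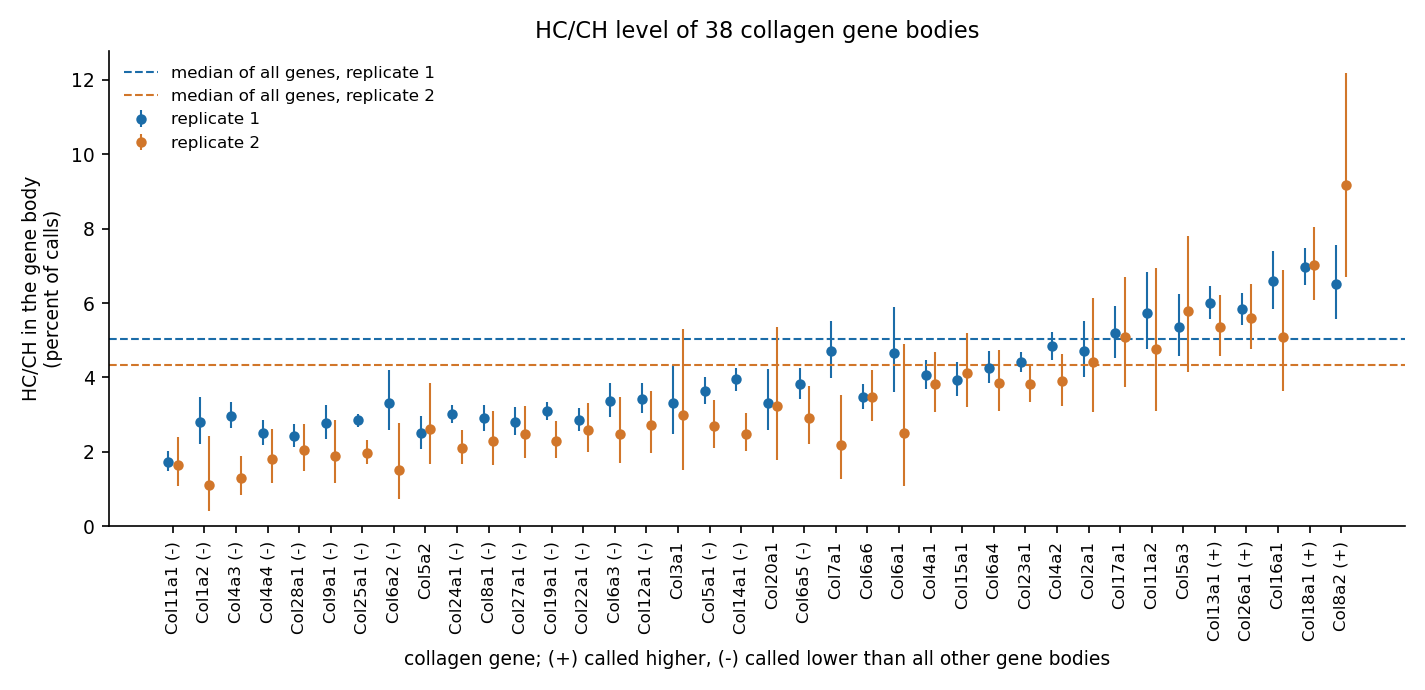
HC/CH level (percent of calls) of each tested collagen body in replicate 1 and replicate 2, with exact 95% intervals, ordered by the mean of both. Dashed lines are the all-gene medians, 5.05% and 4.33%, and marks after the names give the calls, with 18 genes called lower and 4 higher.

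Collagens are long genes, with a median span of 111 kb over all 42 against 17.6 kb over all 20722 genes, tested or not. The same calls were therefore counted among genes of at least 50 kb. Of 27 such collagens, 16 were called lower in HC/CH, and 27.4% of 4702 long genes were. Higher calls went to 3 of the 27 and to 19.6% of the long genes. The median over the long collagens was 3.43% and 2.61%, and over all long genes 4.52% and 3.76%. Length and the HC/CH level went together, with rho = -0.360 and -0.250 across the 38 collagens and -0.372 and -0.348 across all genes. CpG density and HC/CH gave rho = 0.764 and 0.533 across the collagens, and 0.582 and 0.573 across all genes. The part of either in the count was not tested.

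Fibrillar collagens made up 5 of the 18 lower calls out of 10 tested. Over all genes 14.1% were called lower, and 27.4% of those of at least 50 kb. Col11a1, which copolymerises with type II collagen, was lowest of all 38 in replicate 1, with 1.74% (1.48% to 2.03%) against 4.58% in all other bodies, and replicate 2 gave 1.65% (1.09% to 2.39%) against 4.10%. The adjusted p was 5.55e-46 and 4.42e-07 by Fisher's exact test. Only 0.206% of all gene bodies lay below it in replicate 1, and 3.25% in replicate 2. Col1a2, the second chain of type I collagen, gave 2.79% and 1.12%, the latter from 6 HC/CH calls of 536. Col27a1 gave 2.81% and 2.47%, Col24a1, a minor fibrillar collagen, 3.01% and 2.10%, and Col5a1 3.63% and 2.71%. The other fibrillar genes were not called. Among them Col5a2 gave 2.50% and 2.61% with an adjusted p of 0.0507 in replicate 2 by Fisher's exact test, Col3a1 3.32% and 3.0%, Col2a1 4.72% and 4.42%, Col5a3 5.36% and 5.78%, and Col11a2 5.74% and 4.75%. Col1a1, too small for the test, gave 5.17% (4.10% to 6.43%) and 3.22% (1.55% to 5.83%).

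Basement membrane collagens split by gene pair. Col4a3 gave 2.97% and 1.29% and Col4a4 2.50% and 1.80%, both called lower, with 9341 and 1935 calls behind Col4a3 in replicates 1 and 2. Col4a1, at 4.08% and 3.82%, and Col4a2, at 4.84% and 3.89%, were not called. In replicate 1 alone Col4a1 was called lower as well. Differences within the pairs were not tested, and in each replicate both genes of the first pair lay under both of the second. Of the beaded filament genes, Col6a2 (3.32% and 1.52%), Col6a3 (3.38% and 2.48%) and Col6a5 (3.82% and 2.92%) were called lower, and Col6a1, Col6a4 and Col6a6 were not, at 2.52% to 4.66% over both replicates. Among the 7 fibril-associated genes tested 5 were called lower, where 14.1% of all genes and 27.4% of genes of at least 50 kb were. These were Col9a1 with 2.77% and 1.89%, Col22a1 with 2.87% and 2.59%, Col19a1 with 3.1% and 2.29%, Col12a1 with 3.43% and 2.72% and Col14a1 with 3.95% and 2.49%. The remaining lower calls were Col28a1, a collagen of peripheral nerve (2.42% and 2.05%), Col25a1 (2.85% and 1.97%) and Col8a1, a network collagen of vessels (2.90% and 2.30%). Col25a1 has the longest span, 468 kb, and 36361 calls in replicate 1.

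Higher HC/CH was called in Col18a1, Col8a2, Col13a1 and Col26a1. Col18a1 gave 6.97% (6.47% to 7.48%) in replicate 1 and 7.01% (6.07% to 8.05%) in replicate 2, with an adjusted p of 7.27e-25 and 1.36e-10 by Fisher's exact test. In replicates 1 and 2, 89.5% and 91.3% of all gene bodies lay below it. Col8a2, a network collagen of the corneal endothelium's membrane, gave 6.51% (5.57% to 7.55%) and 9.17% (6.69% to 12.2%), the latter from 42 HC/CH calls of 458. Col13a1 gave 6.01% and 5.36%, and Col26a1 5.83% and 5.59%. Col16a1 was called in replicate 1 alone, with 6.58%, and gave 5.08% in replicate 2. Col11a2 was also called higher in replicate 1 only. Besides Col4a1, Col3a1, Col5a2, Col6a6, Col15a1 and Col20a1 were called lower in replicate 1 only, and Col7a1 in replicate 2 only. Of all genes, 41.3% were called higher and 22.7% lower in replicate 1, and 22.6% and 16.2% in replicate 2. Levels were also taken along Col18a1 and Col11a1, which hold the highest and lowest body level of the 38 in replicate 1. A gap between their segments is partly built in by that choice. Over 10 equal segments of the span, Col18a1 ranged from 4.16% to 8.92% in replicate 1 and from 3.82% to 10.5% in replicate 2, with the segment at the 5′ end, 70.5% and 64.7% CC, lowest in both. Col11a1 ranged from 0.703% to 2.70% and from 0.552% to 3.33%. In replicate 2 its highest segment rested on 180 calls and the lowest of Col18a1 on 340 calls. The difference between these segments was not tested.

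**Figure D4:**
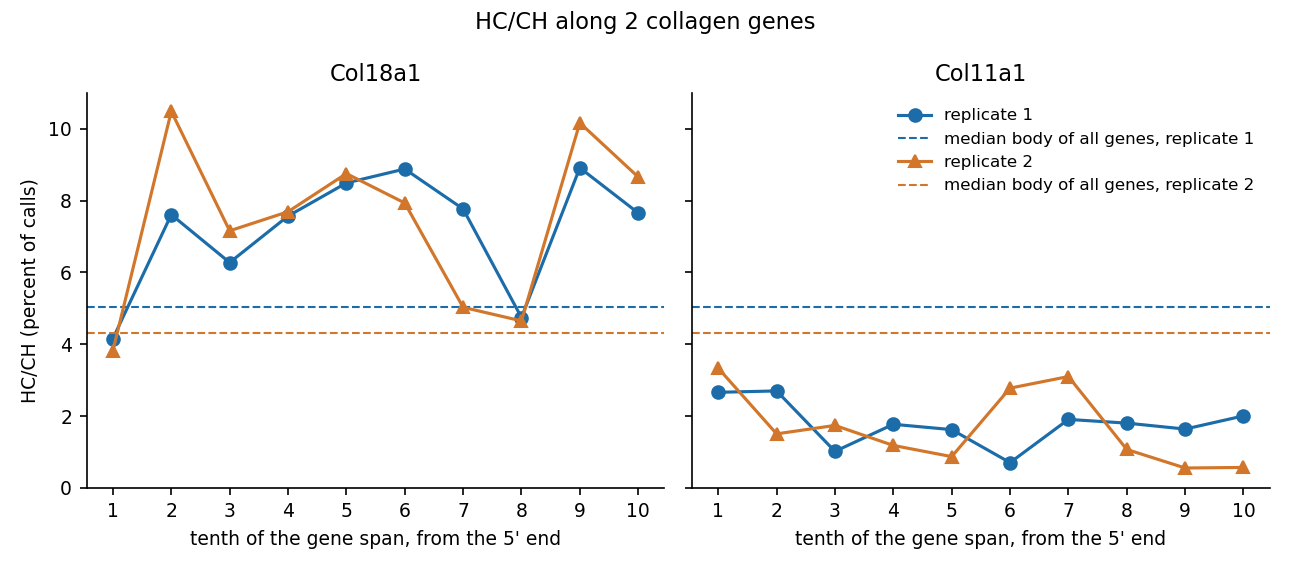
HC/CH level (percent of calls) in 10 equal segments of the span of Col18a1 and Col11a1, counted from the 5′ end, in replicate 1 (circles) and replicate 2 (triangles), with the all-gene body medians as dashed lines. Of 10 segments, 8 of Col18a1 in replicate 1 and 9 in replicate 2 lie above the median of that replicate, and 0 of Col11a1 do.

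Few collagens were called in HM/MH in both replicates, and the counts are near the share of all genes. Of 38 bodies, 0 were called higher (3.60% of all genes) and 2 lower (4.26% of all genes) by Fisher's exact test with Benjamini-Hochberg adjustment. Replicate 1 alone called 4 higher and 5 lower (13.0% and 11.8% of all genes), and replicate 2 alone called 3 higher and 8 lower (9.02% and 7.26%). The genes called in both were Col11a1, with 3.15% and 0.916%, and Col28a1, with 3.09% and 1.37%, both of which were also called lower in HC/CH. Ranked by the lower of both replicates, the highest levels were in Col11a2 (4.6% and 5.89%), Col17a1 (4.77% and 3.78%), Col18a1 (4.67% and 3.66%), Col16a1 (4.23% and 3.65%) and Col8a2 (3.62% and 5.02%). In replicate 1 alone the highest was Col13a1, with 4.95% (3.37% in replicate 2). Corrected with the spike-in rates, these 6 genes gave 1.71% to 2.69% in replicate 1 and 2.99% to 5.65% in replicate 2, while Col11a1 gave 0.460% and 0.570% and Col28a1 0.514% and 1.06%. Calls and ranks use levels as called, and the part of false HM/MH calls at MM sites in them was not tested. In replicate 1 the lowest levels beside the called genes were in Col3a1 (2.75% and 2.45%), Col5a2 (3.25% and 1.63%) and Col2a1 (3.35% and 2.41%), and in replicate 2 they were in Col8a1 (3.9% and 1.57%) and Col4a3 (4.15% and 1.60%). The median was 4.27% and 2.25% over the collagens and 4.31% and 2.76% over all genes. The HM/MH order of the collagens was less alike between replicates than that of HC/CH, with rho = 0.436 (0.439 over all genes).

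As called, HC/CH was above HM/MH in both replicates in 10 of 38 collagens, and in 64.7% of all genes. The replicates differed, with 13 of 38 in replicate 1 and 30 of 38 in replicate 2, and the shares over all genes were 69.0% and 89.8%. After correction with the spike-in rates, which subtracts the HM/MH calls expected from MM sites, it was above in both in 32 of 38 collagens and in 93.4% of all genes. The corrected HM/MH median was 1.25% and 1.88% over the collagens and 1.64% and 2.38% over all genes. Replicate 1 thus had the higher median as called and the lower median corrected. How well the spike-in rates hold for genomic sites was not tested. Col11a1, for example, was 3.15% HM/MH against 1.74% HC/CH as called in replicate 1, and 0.460% against 1.16% corrected. Corrected values below 0 were set to 0, as for HM/MH of Col3a1 in replicate 1.

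**Figure D5:**
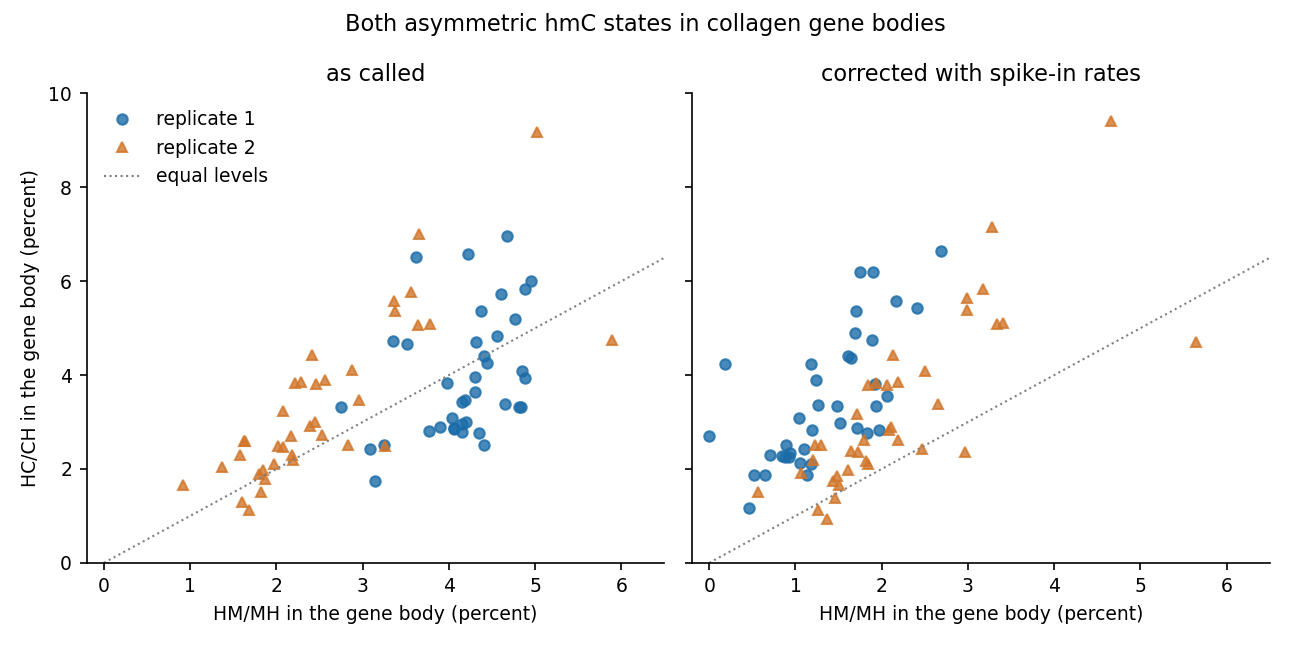
HC/CH against HM/MH (percent) in the 38 tested collagen bodies, as called on the left and corrected with spike-in rates on the right, with circles for replicate 1, triangles for replicate 2 and a dotted line at equal levels. As called, 13 circles and 30 triangles lie above the line, and corrected, 32 genes lie above it in both replicates.

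MM was the main state of collagen bodies, at a median of 60.8% and 65.9% (all genes 56.8% and 61.7%). By Fisher's exact test with Benjamini-Hochberg adjustment, 21 of 38 were called higher than other bodies (32.6% of all genes) and 10 lower (32.4%). Among genes of at least 50 kb, 16 of 27 collagens were called higher (46.7% of long genes) and 8 lower (24.0%). Col6a1, at 71.1% and 77.4%, Col4a4, at 67.7% and 72.0%, Col5a1, at 67.1% and 69.9%, Col4a3, at 66.2% and 68.9%, and Col25a1, at 66.2% and 71.1%, held the most in replicate 1. Col7a1, at 64.4% and 72.0%, and Col1a2, at 64.0% and 67%, were called higher as well. So were Col9a1 (65.5% and 70.7%), a chain of cartilage type IX collagen, Col23a1 (65.4% and 69.0%), a transmembrane collagen, Col19a1 (64.6% and 70.3%) and Col22a1 (64.6% and 71%). The other 10 called higher, Col24a1, Col14a1, Col6a2, Col8a1, Col27a1, Col15a1, Col6a3, Col12a1, Col17a1 and Col4a2, lay between 60.1% and 63.9% in replicate 1. Col8a2, at 35.8% and 38.2%, Col2a1, at 36.4% and 38.3%, and Col18a1, at 42.1% and 46.4%, held the least. Of the 9934 calls in the Col18a1 body in replicate 1, 5201 lay outside its representative transcript, with 28.8% MM and 53.5% CC. The other 7 called lower were Col16a1 (51.2% and 49.7%), Col26a1 (52.0% and 55.9%), Col6a5 (51.9% and 56.6%), Col28a1 (52.7% and 54.0%), Col6a4 (52.7% and 56.9%), Col5a2 (53.4% and 57.3%) and Col6a6 (55.7% and 55.9%). Col2a1 was instead 47.5% and 45.2% CC over its body, and its first intron was 89.4% and 84.8% CC, while its exons held 15.6% and 14.7% CC. The first intron of Col1a1 was also mostly CC, with 99.1% at 14 sites in replicate 1, although replicate 2 covered only 3 of its sites, with 87.5%. Hemimethylated MC/CM made up a median of 13.5% and 15.2% in collagens and 12.9% and 14.3% in all genes. Across the 38 collagens HC/CH ran against MC/CM, with rho = -0.755 and -0.556, and against MM, with rho = -0.420 and -0.641. All genes gave the same signs, with rho = -0.625 and -0.564 for MC/CM and -0.557 and -0.580 for MM. Levels of 1 region sum to a whole, which such correlations share.

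Within a gene, the first intron was compared with the other introns in HC/CH, with 0 of 27 collagens called higher (1.43% of 6516 genes) and 0 lower (0.645%) by Fisher's exact test with Benjamini-Hochberg adjustment. Replicate 1 alone called 3 higher (Col8a2, Col6a3 and Col4a1) and 2 lower (Col2a1 and Col8a1), and replicate 2 alone called Col14a1 and Col28a1 higher. Over all genes, replicate 1 alone called 11.4% higher and 7.63% lower, and replicate 2 alone 2.78% higher, so the counts in replicate 1 are near the background. In replicate 1 the widest gap was in Col8a2, with 9.87% in the first intron against 4.61% in the other introns in replicate 1 (adjusted p = 0.0001 by Fisher's exact test) and 11.1% against 7.32% in replicate 2 (adjusted p = 0.563). In replicate 2 it was in Col28a1, with 7.21% against 1.78% from 111 calls in the first intron, and replicate 1 gave 2.18% against 2.47%. Col6a3 gave 5.57% against 2.66% in replicate 1, and 2.86% against 2.28% in replicate 2. Col2a1 went the other way in both, with 2.50% against 5.09% and 2.03% against 5.17%, and was called in replicate 1. Exons were called higher than the other introns in 1 of 36 collagens (0.398% of 8789 genes) and lower in 0 (0.0455%). The gene called was Col22a1, whose exons held 5.88% against 2.63% in replicate 1 and 10.0% against 2.02% in replicate 2, from 578 and 110 exon calls. The adjusted p was 0.00236 and 0.0116 by Fisher's exact test. The call was lost with sites at least 150 bp apart, where 0% of 4554 genes were called higher. It was also lost with Bonferroni adjustment, where 0.0228% of 8789 genes were. Over all 42 genes summed, HC/CH was 4.29% and 3.22% in exons, 4.04% and 3.54% in first introns and 3.65% and 3.08% in other introns.

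CpG just before a glycine codon made up a larger share of coding CpG in collagens than in all genes. Glycine codons inside and outside the repeat were counted alike. A CpG whose C ends a codon and whose G opens a glycine codon made up 16.6% of 5006 coding CpG in collagens and 9.2% in all genes. By member this share ran from 8.45% in Col20a1 to 33.3% in Col8a1, with 29.1% in Col1a1 and 30.4% in Col4a1. The stretch shown is the coding window of 60 bases with the most such sites covered in both replicates, in exon 32 of the 51 exons of Col1a1. It lies at chr11:94945811-94945870 on the plus strand of GRCm38.p6, starts at a codon, and has the CpG before glycine codons in capitals.
Col1a1: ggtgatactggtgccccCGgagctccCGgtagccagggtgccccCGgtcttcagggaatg

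Of its 20 codons 7 encode glycine. Its 3 capitalised sites were MM in 94.4% of 18 calls in replicate 1 and in 89.5% of 19 calls in replicate 2, with no HC/CH call, which allows a share of up to 16.7% and 15.8% (3 calls). Over all collagens, HC/CH at CpG before glycine was 3.92% of 3598 calls in replicate 1 and 3.8% of 790 calls in replicate 2. Other coding CpG of the collagens gave 4.50% and 3.29%. The difference changed sign between replicates, and in each the intervals of both classes overlapped, with 3.31% to 4.61% before glycine against 4.22% to 4.79% elsewhere in replicate 1. In all genes the sites before glycine gave 5.33% and 5.08% and other coding sites 5.04% and 4.69%, so the levels of both classes were lower in collagens in each replicate, which was not tested.

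By strand, the sense strand carried the hmC in over 50% of asymmetric hmC calls in both replicates in 9 of 38 collagens (19.9% of all genes), and the antisense strand in 12 (27.7%). The remaining 17 collagens changed side between replicates or were even, and these counts are near the background.

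In HC/CH, genes that make or crosslink collagen were called at about the shares of all genes. Of 31 biosynthesis and crosslinking genes, 23 were tested, 5 were called higher in HC/CH (20.3% of all genes) and 4 lower (14.1%) by Fisher's exact test with Benjamini-Hochberg adjustment, and their median was 4.83% and 3.77%. Adamts14, a procollagen N-proteinase, gave 7.01% and 7.15%, Loxl1, a crosslinking oxidase, 7.14% and 7.03%, and P3h3, a prolyl hydroxylase family member, 7.23% and 6.74%, all called higher. So were Loxl3, another crosslinking oxidase, with 5.86% and 7.55%, and Pcolce2, a procollagen proteinase enhancer, with 5.85% and 6.45%. Called lower were Adamts3, another N-proteinase, with 2.94% and 1.77%, P3h2 with 2.76% and 1.09%, Tll1 with 2.93% and 1.89% and Colgalt2 with 3.79% and 2.95%. Among 10 receptors 1 was called higher, Mrc2, which takes up collagen (5.90% and 5.53%). Called lower were Itga2, an integrin subunit (3.23% and 2.64%), and Ddr2, a collagen-binding kinase (3.48% and 2.73%), where 20.3% and 14.1% of all genes were called higher and lower. In MM, 10 of the 23 biosynthesis genes were called higher and 6 lower, and 4 of the 10 receptors higher and 1 lower (32.6% and 32.4% of all genes). In HM/MH, 0 of the 23 were called higher and 2 lower, and 0 of the 10 in either direction (3.60% and 4.26% of all genes). The difference between these lists and the collagens was not tested.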

How the data were processed

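The 42 genes and all lists were chosen with earlier results of these data known. The authors trimmed reads with Cutadapt 4.6, aligned them with BSBolt to mm10, removed duplicates with Picard 3.1.1, and deposited, for each CpG site, the count of calls in each of 9 states and its percent of the site's depth, with sites under 5 calls or in blacklisted regions left out. Only the deposited counts were used here. Calls were summed by region, and 5 kinds of comparison were tested in each replicate with Fisher's exact test (SciPy 1.17.1). Benjamini-Hochberg adjustment was over all genes with enough sites. The body test was also run on simulated calls, drawn independently of each other. Real calls share read pairs, so that run cannot show how the test behaves on these data. Libraries could not be tested against each other, since both are 1 condition. Promoter, body and region minimums are stated with the results. Named genes are 10 well-known collagens, every member called in a comparison (by rule up to 10 in each direction by the size of the smaller difference, and other called members beside them), the 5 highest and 5 lowest in HC/CH and HM/MH, up to 15 with promoter CC under 50%, others where a value shows the range, and pathway genes called in HC/CH. Genes of at least 50 kb, and the glycine comparison without each replicate, were added after seeing the data. Python 3.11.15, NumPy 2.4.6, pandas 2.3.3 and Matplotlib 3.10.9 were used.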

Additional observations from a re-analysis of the deposited data

How the results depend on the processing

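No paired analysis was possible because both libraries are the same condition. Across the alternatives that could change a call, only members called above were followed, and calls gained by other members were not counted here. Of their values, 398 kept their direction and side of the threshold, 45 lost the call and 2 changed sign. The 2 were MM of Col4a2 with sites at least 150 bp apart (-0.3574 percentage points) and MM of Col6a6 with a promoter of 2 kb upstream (0.2041). Bonferroni adjustment can lose a call but cannot change a direction. Either replicate alone and the long genes are not counted, since the call rule fixes their outcome. With at least 10 calls per site only 1 collagen body could be tested, among 263 genes, and no collagen could be tested in exons. In HC/CH 0 were called higher and 1 lower (11.8% and 15.2% of those genes), and in HM/MH 0 lower (3.8%). In MM 1 was called higher and 0 lower (41.1% and 24%), and HC/CH was above HM/MH in 0 (31.6%). Bonferroni adjustment left 1 higher and 7 lower in HC/CH (5.22% and 5.63% of all genes) and 1 lower in HM/MH (1.26%). It left 16 higher and 6 lower in MM (17.3% and 22%) and 0 higher in exons (0.0228%). Sites at least 150 bp apart left 0 collagens higher in exons, and 0% of all 4554 genes tested. Sites covered in both replicates gave 1 lower in HM/MH (2.67% of all) and 7 of 10 promoters of at least 50% CC (89.6% of all), and 2 kb upstream gave 2 of 6 such promoters (75% of all) and 1 higher in HM/MH (3.45% of all). The span start gave 1 of 38 higher in HM/MH (3.67% of all), and lower site minimums 9 of 32 promoters under 50% CC (18.9% of all). HC/CH was above HM/MH in 32 genes with the rates of the same replicate and 32 with those of both (93.4% and 95.6% of all genes). The difference of medians, collagens minus all genes, was -1.55 for HC/CH and 4.16 for MM. For HC/CH it was -1.6482 with at least 10 calls, -1.3893 at shared sites, -1.0857 with 2 kb upstream and -1.4104 with lower minimums. For MM it was 4.3959 and 4.3996 with the corrections, 6.6413 with at least 10 calls, 3.4868 at shared sites, 5.8187 with 2 kb upstream, 3.8695 with the span start, 3.9782 without overlapping genes and 5.0128 with lower minimums. Calls from either replicate alone, over the genes that pass in both, were 4 to 6 higher (22.6% to 41.3% of all genes) and 19 to 24 lower (16.2% to 22.7%) in HC/CH. In HM/MH they were 3 to 4 higher (9.02% to 13%) and 5 to 8 lower (11.8% and 7.26%, in that order). In MM they were 21 to 25 higher (36.2% to 41%) and 10 to 11 lower (33.8% to 42.2%). First introns gave 2 to 3 higher (2.78% to 11.4%) and 0 to 2 lower (0.89% to 7.63%). Exons gave 1 to 3 higher (1.07% to 6%) and 0 to 1 lower (0.137% to 1.77%). The ends are replicate 2 and replicate 1, except that HM/MH gave more lower calls in replicate 2. Over the genes that pass in that replicate alone, replicate 1 gave 28 of 39 promoters of at least 50% CC and 11 under 50%. Over all promoters the shares were 77.1% and 22.9%. Replicate 2 gave 13 of 17 and 4, with 89.7% and 10.3% of all promoters. HC/CH was above HM/MH in 16 of 42 genes in replicate 1 and 30 of 38 in replicate 2 (69.4% and 89.8% of all genes). The medians' difference ranged from -1.615 to -1.3104 for HC/CH, from -0.5059 to 0.0213 for HM/MH, where it is positive without replicate 2, and from 4.2793 to 5.011 for MM. The glycine difference ranged from -0.579 to 0.5091, positive without replicate 1. The cause of these changes was not tested. Replicate 2 has fewer calls, which limits its promoters most.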
